A study of Mus musculus with 24 samples.

Results

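The genes described here encode enzymes that remove superoxide, hydrogen peroxide and other oxidants, or that support this removal. They were chosen by gene name in the scanner files, as the 10 genes Prdx1, Prdx2, Cat, Gpx1, Gpx4, Sod1, Nqo1, Gclc, Gclm and Srxn1, out of 37008 distinct names on the array. All 10 were measured, through 16 of the array's 56605 probes. Each passed the filter on dim probes in both tissues, and the representative probe of each was well above background on all 24 arrays.

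RNA was taken from liver and from bone marrow of male Erfe-/- mice at 0, 24 and 48 h after bleeding from the retro-orbital sinus. Each of the 6 groups holds 4 arrays. With 4 mice per time, liver and marrow of a time come from the same animals, though the labels do not say which arrays share a mouse. The mice at 0 h carry the label control. Every animal, controls included, lacks Erfe, the gene of the erythroid hormone erythroferrone, so no comparison here shows what the deletion itself does. The samples are whole liver and whole marrow, each a mixture of cell types, and the labels used here give no age.

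A level below is the log2 signal of a probe relative to the 75th percentile of its array, and a change is the difference of 2 group means on that scale. Probes differ in their signal per transcript, so levels of different genes are not set against each other. Values in a list follow replicates 1 to 4, which have no order. Changes were tested with limma over all genes of a tissue and called at a Benjamini-Hochberg adjusted p under 0.05. With 4 arrays against 4, the exact two-sided permutation test beside it cannot give a p below 0.0286.

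The tissue labels were checked against marker genes. On the liver arrays 14 of 14 hepatocyte markers were well above background in every group, and on the marrow arrays all 13 measured erythroid markers and all 10 neutrophil markers were. The 2 Erfe probes gave 48 values, of which 1 was well above background, on marrow 24 h replicate 2. That array also carried liver transcripts: the 14 hepatocyte markers had a median of 12.8% of their liver mean there, against 0.00371% to 0.0275% on the other 11 marrow arrays. The 24 h changes of the 10 enzymes in marrow are therefore given with and without it, as are those of other genes that were called at that time. In whole tissue, fewer cells of a type and less RNA per cell cannot be told apart.

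Superoxide dismutase turns superoxide into hydrogen peroxide. Catalase, the glutathione peroxidases and the peroxiredoxins then remove the peroxide, the peroxiredoxins with electrons from thioredoxin and the glutathione peroxidases with glutathione. Red cells, which carry haemoglobin and oxygen, hold large amounts of peroxiredoxin 2, catalase and glutathione peroxidase 1. Sulfiredoxin, NQO1 and both subunits of the enzyme that starts glutathione synthesis are textbook targets of the transcription factor NRF2, which binds antioxidant response elements.

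In marrow, 2 of the 10 enzymes were called higher at 48 h, Prdx2 by 1.5-fold and Srxn1 by 1.40-fold, and 0 lower. Over all genes 1.23% were called in that comparison. Both calls lie close to the threshold. Prdx2 lost its call in 7 of 15 other settings and 9 of 12 fits without 1 array, and Srxn1 in 9 and 10. At 24 h 0 of 10 were called, where 1.01% of all genes were, and between 48 and 24 h 0 of 10, against 0.00467%. At an unadjusted p under 0.05 limma gave 1, 4 and 3 enzymes in these comparisons. In liver 0 of 10 were called at 24 h, at 48 h or between the 2 later times, where the share over all genes was 0.0% each time. The unadjusted counts there were 1, 0 and 1, beside 2146, 1266 and 1499 over all 19649 genes tested. The median change of the 10 enzymes in marrow was 0.14 at 24 h (0.10 without the array that carries liver transcripts) and 0.27 at 48 h, beside -0.02 and 0.00 over all genes, and in liver -0.11 and -0.09, beside -0.02 and -0.02.

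**Figure D1:**
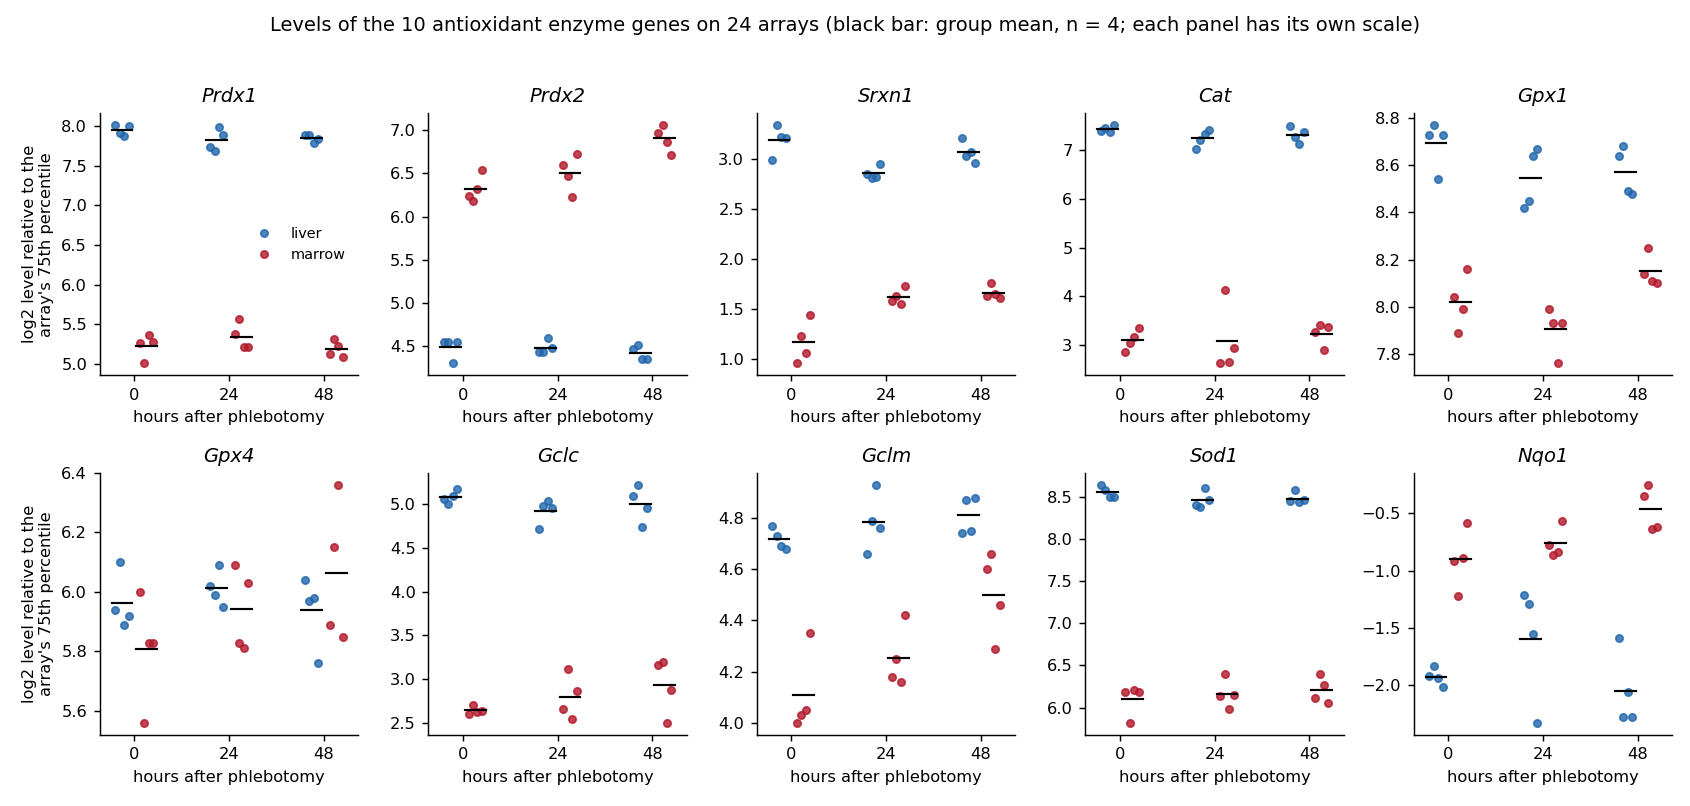
Level of each enzyme gene on every array (vertical axis, log2 relative to the array's 75th percentile) at 0, 24 and 48 h (horizontal axis), in liver (blue) and marrow (red), with the group mean of 4 arrays as a black bar. In marrow Prdx2 runs from a mean of 6.32 at 0 h to 6.91 at 48 h and Srxn1 from 1.17 to 1.66, and Cat has 1 marrow array at 4.13 at 24 h.

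Prdx2 encodes peroxiredoxin 2, the main peroxiredoxin of red cells. Its representative probe (A_55_P1979432) lies on chromosome 8, 87498153 to 87498212, plus strand, in the mouse build mm9. In marrow its levels were 6.24, 6.18, 6.32 and 6.54 at 0 h, 6.60, 6.47, 6.23 and 6.73 at 24 h, and 6.97, 7.06, 6.87 and 6.72 at 48 h. All 4 arrays at 48 h lay above all 4 at 0 h, and the 24 h arrays overlapped with both. Groups did not overlap for 2 of the 10 enzymes in this comparison, against 12.7% of all genes. The change at 48 h was 0.59 (SE 0.12), with a limma adjusted p of 0.0465 (0.0286 by the exact permutation test). At 24 h it was 0.19 (SE 0.12, limma adjusted p 0.568), and 0.20 without the array that carries liver transcripts. From 24 to 48 h it was 0.40, with 3 of 4 arrays above all those at 24 h and a limma adjusted p of 0.563. A second probe in the gene (A_52_P893440, chromosome 8, 87494387 to 87494446) gave 0.60 at 48 h (SE 0.12, limma adjusted p over all kept probes 0.0437). A probe on the minus strand (A_55_P2727155) stayed at background on all 24 arrays.

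In liver Prdx2 was lower, and neither change passed the test. The levels were 4.55, 4.55, 4.30 and 4.55 at 0 h, 4.43, 4.43, 4.59 and 4.48 at 24 h, and 4.46, 4.51, 4.35 and 4.35 at 48 h. The groups overlapped, and the changes were -0.01 (95% interval -0.18 to 0.16) and -0.07 (-0.24 to 0.10). The 48 h change in marrow exceeded that in liver by 0.66 (SE 0.15), with a limma adjusted p of 0.0510 for the difference, just outside the threshold.

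Prdx2 is shown by sequence because it is the enzyme with the largest rise. The 250 bases before its start, from RefSeq on GRCm38.p6 at chr8:84969372-84969621, plus strand, have in capitals the matches to CCNCNCCC, the pattern of the CACCC boxes that erythroid Krüppel-like factors bind.
Prdx2: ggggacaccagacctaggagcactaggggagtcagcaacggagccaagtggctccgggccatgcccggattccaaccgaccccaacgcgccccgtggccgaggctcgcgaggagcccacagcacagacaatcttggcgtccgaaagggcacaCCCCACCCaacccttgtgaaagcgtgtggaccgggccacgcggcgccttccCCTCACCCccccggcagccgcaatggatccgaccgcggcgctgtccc
It holds CCNCNCCC at bases -98 to -91 and -47 to -40 before the start. On either strand it holds neither AGATAA, a form of the GATA motif, nor the antioxidant response element cores TGACNNNGC and TGAGNNNGC. Other forms of the GATA motif were not searched. Among 32851 mouse promoters of that length, CCNCNCCC occurs in 15089 and AGATAA in 3281. Of the 9 enzymes with an entry, 7 hold the former and 0 the latter. The promoters are counted singly, but an enzyme counts if any of its promoters has a match. Gpx4 has 4 promoters.

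Prdx2 moved together with red cell markers. The mean log2 level of 13 erythroid markers was 4.55, 4.61, 4.65 and 4.97 on the marrow arrays at 0 h, 4.76, 4.71, 4.57 and 5.0 at 24 h, and 5.18, 5.32, 4.88 and 5.05 at 48 h. Of these markers 13 of 13 had a positive change at 48 h, with a median of 0.42, 1 was called (Rhag, a membrane protein of red cells, 0.74, limma adjusted p 0.0357, lost in 6 of 14 other settings and 7 of 12 fits without 1 array), and 8 had an unadjusted p under 0.05. Over all marrow genes at 48 h, 3430 of 21399 reached that unadjusted p and 1.23% were called. The summed level of the erythroid markers on a linear scale ran from 1160.6 to 1493.7 at 0 h, 1143.3 to 1346.4 at 24 h and 1373.1 to 1685.8 at 48 h. Over the 12 marrow arrays the Pearson correlation of Prdx2 with the marker mean was 0.927. In liver the 8 tested markers had a median change of 0.43 at 48 h, with 0 called. Of 13 markers, 1 was called in the 48 h difference between the tissues: the change of Hba-a1, an alpha-globin gene, was lower in marrow than in liver (-0.86, limma adjusted p 0.0279, lost in 5 of 15 other settings and 8 of 24 fits without 1 array). Over all genes 0.413% were called in the 48 h difference between the tissues. The part of the erythroid markers in the result was not tested.

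**Figure D2:**
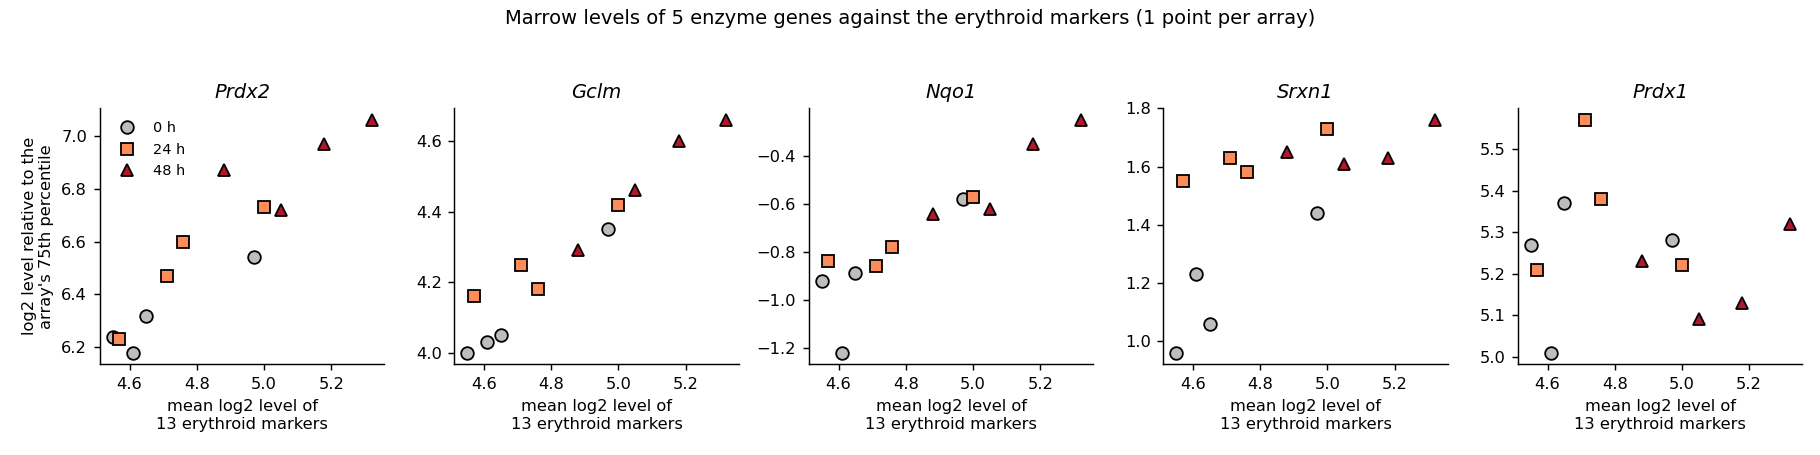
Marrow level of 5 enzyme genes (vertical axis, log2) against the mean log2 level of 13 erythroid markers (horizontal axis), 1 point per array, with 0 h as grey circles, 24 h as orange squares and 48 h as red triangles. Prdx2, Gclm and Nqo1 lie along a line with the markers (r of 0.927, 0.968 and 0.921), Srxn1 at 24 h lies above all 0 h arrays, and Prdx1 follows no line (r of -0.131).

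The arrays were hybridised on 3 slides, each with 4 liver and 4 marrow arrays. Within slides, the marrow change of Prdx2 at 48 h was 0.76 on slide 1 (1 array against 2), 0.64 on slide 2 (2 against 1) and 0.19 on slide 3 (1 against 1). That of Srxn1 was 0.53, 0.64 and 0.17 in the same order. The sign was the same on all 3 slides for both genes, and the smallest change was on slide 3. Over all genes, deviations from the group means were compared between arrays of different times. In marrow the median correlation was 0.1 on the same slide and -0.033 on different slides. In liver it was 0.079 and -0.037. With the slide as a block, the limma adjusted p became 0.135 for Prdx2 and 0.122 for Srxn1, so neither passed.

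Srxn1 encodes sulfiredoxin, which restores peroxiredoxins whose active cysteine has been overoxidised. Its probe (A_55_P2033120) lies on chromosome 2, 151937009 to 151937068, plus strand, in mm9. In marrow its levels were 0.96, 1.23, 1.06 and 1.44 at 0 h, 1.58, 1.63, 1.55 and 1.73 at 24 h, and 1.63, 1.76, 1.65 and 1.61 at 48 h. All arrays at both later times lay above all arrays at 0 h, and the 2 later times overlapped. At 24 h this non-overlap held for 1 of 10 enzymes and for 8.27% of all genes. The change was 0.45 at 24 h (SE 0.10, 1.37-fold), with a limma adjusted p of 0.0670, and 0.49 at 48 h (SE 0.10), with a limma adjusted p of 0.0461. The exact permutation test gave 0.0286 for both. Without the 24 h array that carries liver transcripts the 24 h change was 0.45 (limma adjusted p 0.121) and the 48 h change 0.49 (0.0477). Between 48 and 24 h the level moved by 0.04 (95% interval -0.19 to 0.26).

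The liver levels of Srxn1 were 2.99, 3.34, 3.22 and 3.21 at 0 h, 2.85, 2.81, 2.82 and 2.95 at 24 h, and 3.21, 3.03, 3.07 and 2.96 at 48 h. All 4 arrays at 24 h lay below all 4 at 0 h and also below all 4 at 48 h. Each of these held for 1 of 10 enzymes in liver, against 5.53% and 3.66% of all genes. The 24 h change of -0.33 (SE 0.09) reached 0.0286 in the exact permutation test, but its limma adjusted p was 0.325, so it did not pass over all genes. The change from 24 to 48 h was 0.21 (SE 0.09, limma adjusted p 0.602). At 48 h against 0 h the groups overlapped for all 10 enzymes in liver (4.2% of all genes did not overlap), and Srxn1 was at -0.12.

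The tissues differed in how Srxn1 changed. Its 24 h change was higher in marrow than in liver by 0.78 (SE 0.13, 95% interval 0.51 to 1.06), with a limma adjusted p of 0.0101 in the fit to all 24 arrays. At 48 h the difference was 0.61 (SE 0.13, limma adjusted p 0.0415). Srxn1 was the 1 enzyme of 10 called in either comparison, where 0.364% and 0.413% of all genes were called. The 24 h difference also passed in all 24 fits without 1 array and in 15 of 16 other settings, failing in the fit to the arrays compared alone (0.0682). Within slides 1, 2 and 3 the 24 h change in marrow was 0.49 (1 array against 2), 0.57 (1 against 1) and 0.20 (2 against 1). In liver it was -0.31, -0.41 and -0.33, with the same numbers of arrays. The signs were opposite on each slide, but the 1 marrow 24 h array on slide 2 is replicate 2, which carries liver transcripts. Without that array the difference in the 24 h change was 0.78 (limma adjusted p 0.021). The fits to all 24 arrays treat them as independent, although the tissues share mice. With liver and marrow arrays of the same time and number as a block, chosen after seeing the data, the limma adjusted p was 0.0492 at 24 h and 0.105 at 48 h, so the 48 h call was lost. The 48 h difference lost its call in 11 of 16 other settings, with a limma adjusted p of 0.0592 with the slide as a block, and in 18 of 24 fits without 1 array. It kept the call without liver 0 h replicate 1, liver 48 h replicate 1, liver 24 h replicate 4, marrow 24 h replicate 2, marrow 24 h replicate 3 or marrow 0 h replicate 4. Over all of these the difference ran from 0.54 to 0.70 and the limma adjusted p from 0.00727 to 0.310.

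At 48 h the difference between the tissues was positive for 10 of 10 enzymes, with a median of 0.29 beside 0.03 over all genes. An unadjusted p under 0.05 was reached by 4 of them, Srxn1, Prdx2, Gclm (0.30, limma adjusted p 0.367) and Gpx1 (0.25, limma adjusted p 0.412). Over all genes 2508 of 22781 reached it.

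**Figure D3:**
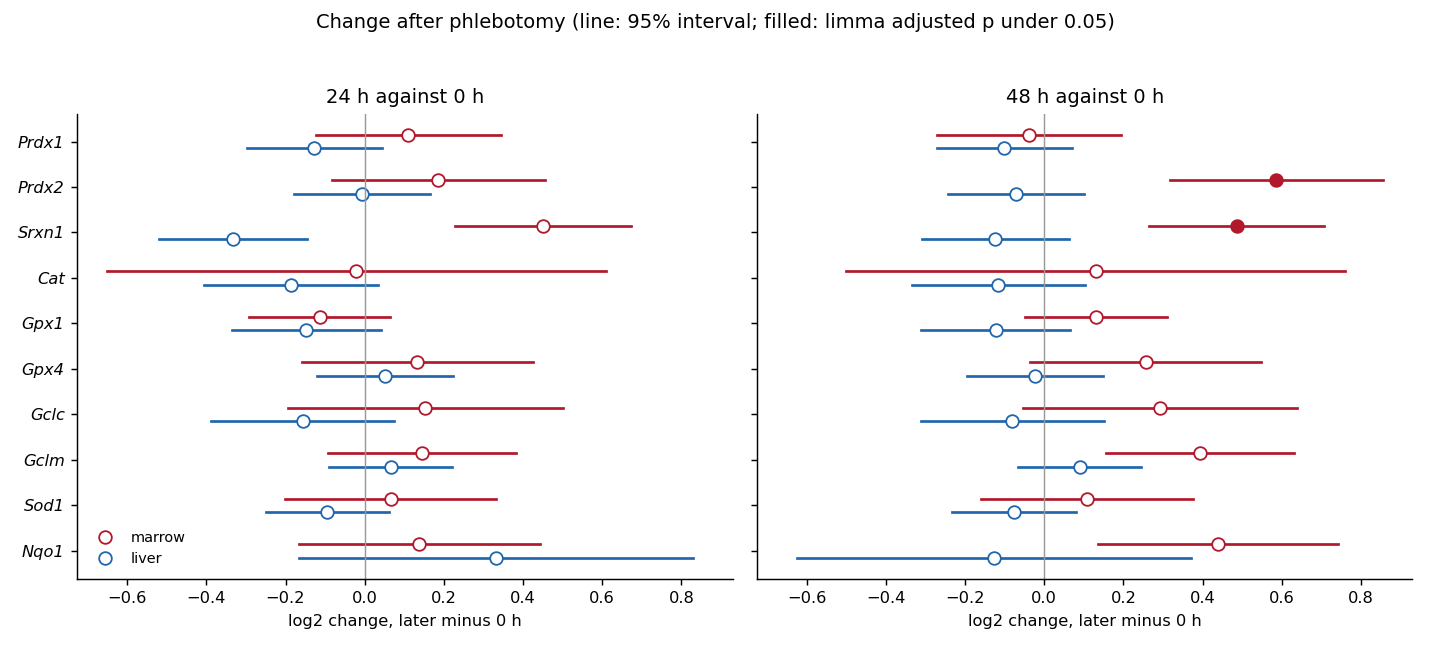
Change of each enzyme gene from 0 h (horizontal axis, log2) at 24 h (left) and 48 h (right) in marrow (red) and liver (blue), with the 95% interval as a line and a filled point where the limma adjusted p was under 0.05. The filled points are Prdx2 at 0.59 and Srxn1 at 0.49 in marrow at 48 h.

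Srxn1 is shown by sequence as the gene whose change differed between the tissues. The 250 bases before its start (RefSeq, GRCm38.p6, chr2:152105274-152105523, plus strand) hold TGAGNNNGC, a variant of the antioxidant response element core, at bases -158 to -150 on the minus strand and -45 to -37 on the plus strand, marked in capitals.
Srxn1: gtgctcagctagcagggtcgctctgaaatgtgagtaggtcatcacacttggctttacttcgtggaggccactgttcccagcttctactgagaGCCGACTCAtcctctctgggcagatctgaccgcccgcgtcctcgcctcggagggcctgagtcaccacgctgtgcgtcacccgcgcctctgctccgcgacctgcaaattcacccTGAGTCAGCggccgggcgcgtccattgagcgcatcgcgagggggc
Matches to the core TGACNNNGC stand in 3 other enzymes, all on the minus strand. They begin 134 bases before the start of Gclm, 133 before that of Prdx1 and 56 before that of Sod1, and are shown in capitals with 20 bases on each side (GRCm38.p6, plus strand, chr3:122245403-122245451, chr4:116685446-116685494 and chr16:90220686-90220734).
Gclm: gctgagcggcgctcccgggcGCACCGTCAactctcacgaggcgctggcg
Prdx1: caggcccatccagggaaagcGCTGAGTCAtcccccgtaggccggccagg
Sod1: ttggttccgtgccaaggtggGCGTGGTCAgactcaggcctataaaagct
The match in Sod1 overlaps a match to CCNCNCCC. Of all promoters, counted singly, 10.2% hold TGACNNNGC, 14.4% TGAGNNNGC and 23.0% either, against 4 of the 9 enzymes, counted by any promoter. Of these 4, Srxn1 was called in marrow and Gclm, Prdx1 and Sod1 were not.

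Gclm and Gclc encode the modifier and the catalytic subunit of glutamate-cysteine ligase, the first enzyme of glutathione synthesis. Gclm (A_66_P138964, chromosome 3, 121967737 to 121967796, mm9) stood in marrow at 4.00, 4.03, 4.05 and 4.35 at 0 h, 4.18, 4.25, 4.16 and 4.42 at 24 h, and 4.60, 4.66, 4.29 and 4.46 at 48 h. At 48 h 3 of 4 arrays were above all those at 0 h, and the highest 0 h array overlapped with them. The change was 0.39 (SE 0.11, limma adjusted p 0.109, exact permutation p 0.0571), and it followed the erythroid markers with a correlation of 0.968. At 24 h it was 0.14 (limma adjusted p 0.620), and 0.15 without the array that carries liver transcripts. In liver Gclm changed by 0.07 and 0.09, with levels of 4.68 to 4.77 at 0 h, 4.66 to 4.93 at 24 h and 4.74 to 4.88 at 48 h.

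Gclc (A_51_P365019, chromosome 9, 77641296 to 77641355, mm9) had marrow levels of 2.60, 2.70, 2.63 and 2.64 at 0 h, 2.66, 3.12, 2.55 and 2.86 at 24 h, and 3.16, 3.19, 2.50 and 2.88 at 48 h. The spread widened from an SD of 0.04 at 0 h to 0.25 and 0.32, with 3 of 4 arrays at 48 h above all those at 0 h and 1 below. The changes were 0.15 (SE 0.16) and 0.29 (SE 0.16), and neither passed (limma adjusted p 0.732 and 0.391). With replicate 2 of marrow at 24 h left out, the highest at its time, the 24 h change was 0.05. In liver Gclc was at 5.08 ± 0.07, 4.92 ± 0.14 and 5.0 ± 0.20 (SD, n = 4) at 0, 24 and 48 h, and neither change passed.

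Nqo1 encodes a quinone reductase that NRF2 induces. Its probe (A_51_P424338, chromosome 8, 109912440 to 109912499, minus strand, mm9) gave marrow levels of -0.92, -1.22, -0.89 and -0.58 at 0 h, -0.78, -0.86, -0.84 and -0.57 at 24 h, and -0.35, -0.25, -0.64 and -0.62 at 48 h. At 48 h 2 of 4 arrays lay above all those at 0 h. The change of 0.44 (SE 0.14) did not pass (limma adjusted p 0.152, exact permutation test 0.0857). On slides 1, 2 and 3 it was 0.72, 0.45 and -0.03. At 24 h it was 0.14, and 0.17 without the array that carries liver transcripts. The correlation with the erythroid marker mean was 0.921. In liver the spread grew after bleeding: levels were -1.92, -1.83, -1.94 and -2.02 at 0 h, -1.21, -1.29, -1.55 and -2.33 at 24 h, and -1.59, -2.28, -2.06 and -2.28 at 48 h. At 24 h 3 of 4 arrays were above and 1 below all those at 0 h, and the change of 0.33 (SE 0.23) had a limma adjusted p of 0.616.

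Gpx1 encodes the glutathione peroxidase that reduces hydrogen peroxide in the cytosol, a selenoenzyme. Its probe (A_52_P684378) lies on chromosome 9, 108242276 to 108242335, in mm9. In marrow it was at 8.04, 7.89, 7.99 and 8.16 at 0 h, 7.99, 7.93, 7.76 and 7.93 at 24 h, and 8.14, 8.25, 8.11 and 8.10 at 48 h. All 4 arrays at 48 h lay above all 4 at 24 h, as for 1 of 10 enzymes and 3.71% of all genes, while both overlapped with 0 h. The change from 24 to 48 h was 0.25 (SE 0.08, exact permutation p 0.0286, limma adjusted p 0.573), and that from 0 to 48 h 0.13 (limma adjusted p 0.459). The 24 h change was -0.11, and -0.12 without the array that carries liver transcripts. In liver Gpx1 was at 8.69 ± 0.10, 8.55 ± 0.13 and 8.57 ± 0.10 (SD, n = 4).

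Gpx4, which reduces lipid peroxides in membranes, was measured by a probe spanning 79518691 to 79518842 on chromosome 10 in mm9 (A_51_P462448). Its marrow levels were 5.81 ± 0.18 at 0 h, 5.94 ± 0.14 at 24 h and 6.06 ± 0.24 at 48 h, and its liver levels 5.96 ± 0.09, 6.01 ± 0.06 and 5.94 ± 0.13 (SD, n = 4). The 24 h change in marrow was 0.13, and 0.17 without the array that carries liver transcripts. The 48 h change in marrow, 0.26 (95% interval -0.04 to 0.55), had a limma adjusted p of 0.372. The groups overlapped in both tissues.

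Cat encodes catalase, the peroxide-splitting enzyme of peroxisomes and of red cells. Its probe (A_52_P679769) lies on chromosome 2, 103294660 to 103294719, minus strand, in mm9. The marrow levels were 2.86, 3.05, 3.16 and 3.36 at 0 h, 2.63, 4.13, 2.65 and 2.94 at 24 h, and 3.27, 3.41, 2.90 and 3.37 at 48 h. The value of 4.13 belongs to marrow 24 h replicate 2, the array with liver transcripts, and Cat was far higher in liver than in marrow. With that array the 24 h change was -0.02 (SE 0.29), and without it -0.37 (SE 0.15, limma adjusted p 0.364). The change from 24 to 48 h was 0.15 with it and 0.50 without it (limma adjusted p 0.744). At 48 h against 0 h the change was 0.13 (SE 0.29). In liver Cat was at 7.43 ± 0.06, 7.24 ± 0.17 and 7.31 ± 0.15 (SD, n = 4), and at 24 h 3 of 4 arrays were below all those at 0 h (change -0.19, limma adjusted p 0.516).

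Prdx1, a peroxiredoxin found in most cells, and Sod1, the copper-zinc superoxide dismutase, had the smallest 48 h changes in marrow. Prdx1 (A_55_P2904683, chromosome 4, 116372029 to 116372088, mm9) was in marrow at 5.23 ± 0.15, 5.34 ± 0.17 and 5.19 ± 0.10 and in liver at 7.95 ± 0.07, 7.82 ± 0.14 and 7.85 ± 0.05 (SD, n = 4). Its 48 h change was -0.04 (95% interval -0.27 to 0.19) in marrow and -0.10 (-0.27 to 0.07) in liver. The other kept probes of Prdx1 gave -0.02 and 0.08 in marrow at 48 h. Sod1 (A_51_P367381, chromosome 16, 90226497 to 90226556, mm9) was in marrow at 6.10 ± 0.19, 6.17 ± 0.17 and 6.21 ± 0.15 and in liver at 8.55 ± 0.07, 8.46 ± 0.10 and 8.48 ± 0.07 (SD, n = 4). Its 48 h change was 0.11 (-0.16 to 0.38) in marrow and -0.08 (-0.23 to 0.08) in liver. A second kept probe of Sod1 (A_52_P3581, 90224181 to 90224240) gave 0.05 in marrow at 48 h. In marrow at 24 h, replicate 2 was the highest of its time in both genes, at 5.57 and 6.40, and without it their changes were 0.04 and -0.01, against 0.11 and 0.07 with it.

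At 0 h the enzymes divided by tissue. Prdx2 and Nqo1 were higher in marrow than in liver, by 1.83 (SE 0.10, 3.56-fold) and 1.03 (SE 0.20, 2.04-fold), and 7 were lower. Cat had the largest difference (-4.32, SE 0.23). Prdx1 was 6.57-fold lower in marrow, Sod1 5.47-fold, Gclc 5.42-fold, Srxn1 4.05-fold, Gpx1 1.60-fold and Gclm 1.53-fold. The second Sod1 probe gave a smaller difference (-1.16, SE 0.15) than the representative one (-2.45). Gpx4 did not pass (-0.15, 95% interval -0.38 to 0.08). The limma adjusted p of the 9 called enzymes ran from 4.01e-16 for Prdx1 to 7.32e-05 for Nqo1, but 80.2% of all genes were called, so a call between tissues sets no gene apart. The groups did not overlap for 9 of 10 enzymes and for 76.1% of all genes. These differences assume that the 75th percentile is a common scale for both tissues. Under quantile normalisation Gpx1 turned to 0.18 (limma adjusted p 0.0410), Gpx4 to 0.37 (0.000417), Gclm lost its call at -0.09 (0.379), and Sod1 stood at -1.78.

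Over all times the order held for most genes. For Prdx2 all 12 marrow arrays (6.18 to 7.06) lay above all 12 liver arrays (4.30 to 4.59). For 7 enzymes all marrow arrays lay below all liver arrays, with the widest gap for Cat (2.63 to 4.13 against 7.02 to 7.51) and a gap of less than the rounding for Gclm (4.00 to 4.66 against 4.66 to 4.93). Gpx4 overlapped, and Nqo1 did so by a single liver array at -1.21 beside a marrow array at -1.22. Between times within a tissue, the called differences were those of Prdx2 and Srxn1 in marrow between 0 and 48 h, and neighbouring times gave no called difference for any of the 10 enzymes.

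**Figure D4:**
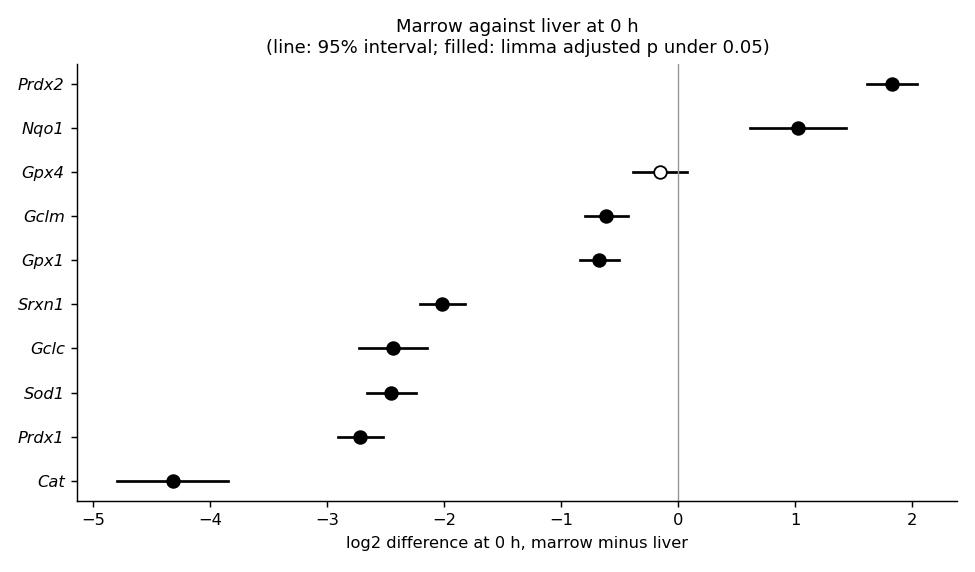
Difference between marrow and liver at 0 h for each enzyme gene (horizontal axis, log2, marrow minus liver), sorted, with the 95% interval as a line and a filled point where the limma adjusted p was under 0.05. Cat stands lowest at -4.32, Prdx2 highest at 1.83, and Gpx4 at -0.15 is the open point.

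Some of the 10 enzymes varied together across arrays, and no difference between the tissues in this was tested. Over the 12 marrow arrays, which share the 3 times and the marrow's makeup, Pearson correlations were 0.910 between Prdx2 and Nqo1, 0.908 between Prdx2 and Gclm and 0.930 between Nqo1 and Gclm, where the 12 liver arrays gave 0.083, 0.240 and -0.222. Prdx1 and Sod1 formed another pair at 0.784, and Prdx1 with Prdx2 was at -0.014. With the erythroid marker mean the correlation was 0.773 for Gpx1, 0.679 for Srxn1, 0.666 for Gclc, 0.373 for Gpx4, 0.364 for Sod1 and 0.311 for Cat. Without marrow 24 h replicate 2 it was 0.687 for Cat, 0.828 for Gclc, 0.512 for Sod1, 0.732 for Srxn1 and -0.016 for Prdx1, and it stayed at 0.927 for Prdx2. In liver 8 erythroid markers were tested and 0 called, with 4 at an unadjusted p under 0.05 at each time and a median change of 0.29 at 24 h. Over all liver genes, 2146 and 1266 of 19649 reached that unadjusted p at 24 and 48 h. The correlation there lay between -0.362 for Sod1 and 0.294 for Gclm. Over the 12 liver arrays Prdx1 was at 0.843 with Gpx1, 0.814 with Sod1 and 0.710 with Cat, and Srxn1 at -0.462 with Gclm. These are descriptions of 12 arrays each, out of 45 pairs per tissue.

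The genes most like the members, by Pearson correlation over 12 arrays among all genes tested, were found for 3 members per tissue. In marrow they were Mgst3, a microsomal glutathione transferase (0.985), Asb17os (0.977) and a transcript with an Ensembl identifier alone (0.976) for Prdx2. For Cat they were Selenbp1 (0.983), Selenbp2 (0.960) and Slc26a1 (0.953), which stayed at 0.962, 0.956 and 0.894 over the 11 arrays without marrow 24 h replicate 2. For Gpx1 they were Hscb (0.956), Bdkrb1 (0.926) and Ephb6 (0.925). In liver they were Acot4 (0.937), Aldh1b1 (0.893) and a probe named by its position (0.891) for Nqo1, Cnnm2 (0.915), Eef1a1 (0.895) and Fam98c (0.873) for Gclm, and Tsc22d1 (0.942), Tbcel (0.939) and Vapa (0.932) for Srxn1. The lists were drawn from 21031 genes in marrow and 19488 in liver, and no test was made.

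Around the 10 enzymes, 6 lists of related genes were counted. Of 13 tested genes of the thioredoxin and peroxiredoxin system, 1 rose in marrow at 48 h, Prdx3, the mitochondrial peroxiredoxin. Its levels ran from 3.35 to 3.5 at 0 h, 3.63 to 3.96 at 24 h and 3.82 to 4.15 at 48 h. The 48 h change was 0.52 (SE 0.10, limma adjusted p 0.0303), 0.63 above that in liver (limma adjusted p 0.0367 for the difference). The call on the difference was lost in 8 of 15 other settings and 11 of 24 fits without 1 array. The list's median change was 0.08, beside 0.00 over all genes. The share called over all genes was 1.01% in marrow at 24 h, 1.23% at 48 h, and 0.413% for the 48 h difference. The 48 h call within marrow was lost in 5 of 14 other settings and 7 of 12 fits without 1 array. At 24 h 0 of 13 passed, with or without the array that carries liver transcripts.

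Of the glutathione system 25 genes were tested in marrow. Gss, the enzyme that completes glutathione, rose at 24 h by 0.89 (SE 0.14, limma adjusted p 0.0154) and at 48 h by 0.69 (0.0479). Its levels ran from 1.48 to 1.73 at 0 h, 2.21 to 2.89 at 24 h and 2.16 to 2.45 at 48 h. No later array overlapped with those at 0 h. Groups did not overlap for 8.27% of all genes at 24 h and 12.7% at 48 h. Gss was also well expressed in liver (3.84 to 4.15 at 0 h), and without the array that carries liver transcripts the 24 h change was 0.75 (0.0229). The 24 h call of Gss was lost in 3 of 14 other settings and 3 of 12 fits without 1 array. Gstm5, a glutathione transferase, rose at 48 h by 0.73 (SE 0.13, limma adjusted p 0.0247). Slc7a11, the transporter that brings in cystine for glutathione synthesis, fell by 0.78 (SE 0.17, 0.0485), from a low level of -3.63 to -3.37 at 0 h to -4.44 to -4.08 at 48 h. The 48 h calls of Gss, Gstm5 and Slc7a11 were lost in 8, 3 and 10 of 14 other settings and in 10, 5 and 10 of 12 fits without 1 array. That makes 1 higher and 0 lower at 24 h, and 2 higher and 1 lower at 48 h, with a median of -0.04 at 48 h. Over all genes 1.01% were called at 24 h and 1.23% at 48 h, in either direction.

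Among 20 tested NRF2 targets outside the 10 enzymes, 1 fell at 24 h and 1 at 48 h in marrow, and 0 rose. At 24 h it was Hmox1, haem oxygenase 1, which degrades haem and is repressed by BACH1. Its levels ran from 4.19 to 4.83 at 0 h, 2.96 to 3.52 at 24 h and 3.46 to 3.99 at 48 h. The 24 h change of -1.31 (SE 0.18, limma adjusted p 0.00687) was -1.21 without the array that carries liver transcripts, and it passed in all 14 other settings and all 12 fits without 1 array. At 48 h it was Slc7a11, which stands in both lists. The list's medians were 0.03 (0.07 without that array) and -0.14. The share called over all genes was 1.01% at 24 h and 1.23% at 48 h. Macrophages are rich in Hmox1, and the marrow's 8 tested macrophage markers had a median change of -0.34 at 24 h (-0.26 without that array) with 0 called, 7 of 8 below 0 and 5 at an unadjusted p under 0.05. Over all marrow genes, 2697 of 21399 reached that unadjusted p at 24 h. The summed level of the macrophage markers ran from 55.3 to 58.9 at 0 h and 43.0 to 51.8 at 24 h. Their part in the result was not tested.

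The remaining lists gave 0 calls in marrow at 24 or 48 h by limma: superoxide dismutases and NADPH supply (10 genes, 1 and 1 at an unadjusted p under 0.05), regulators of NRF2 (12 genes, 0 and 2) and selenoproteins with the machinery that inserts selenium (22 genes, 4 and 1). Over all marrow genes, 2697 and 3430 of 21399 had an unadjusted p under 0.05 at 24 and 48 h. Without marrow 24 h replicate 2, 1 gene of the NADPH list was called higher at 48 h. Of the regulators, Nfe2, an erythroid relative of NRF2, was at 0.30 (limma adjusted p 0.110) and Mafk, its small partner, at 0.30 (0.141) at 48 h. Of the selenoproteins, Txnrd2, the mitochondrial thioredoxin reductase, was at 0.55 (0.0807). In liver 0 genes of the 6 lists were called by limma at 24 or 48 h, with 4, 6, 4, 0, 6 and 9 at an unadjusted p under 0.05 at 24 h (thioredoxin, glutathione, NADPH, regulators, NRF2 targets, selenoproteins). Over all liver genes, 2146 of 19649 reached that unadjusted p at 24 h. Within the 6 lists the smallest p at 24 h in liver was that of Me1, malic enzyme, a source of NADPH, at -1.62 (SE 0.37, limma adjusted p 0.325).

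Markers of other marrow cells moved as well. At 24 h 2 of 5 T cell markers fell, Cd8a by 1.09 and Cd3d by 0.64 (limma adjusted p 0.0254 and 0.0353), or by 0.89 and 0.52 without marrow 24 h replicate 2. These calls were lost in 3 and 4 of 14 other settings and in 5 and 8 of 12 fits without 1 array. The share called over all genes was 1.01% at 24 h and 1.23% at 48 h. Of the T cell markers 0 of 5 were called at 48 h, where the median was -0.47. Without that array, 2 of 5 were called lower at 48 h. Of 8 B cell markers 0 were called, with medians of -0.68 (-0.60 without that array) and -0.47 and 8 of 8 below 0 at each time. Of 10 neutrophil markers and 5 megakaryocyte markers 0 were called, with medians of -0.22 and 0.10 at 48 h. Their part in the changes of the enzymes was not tested.

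The calls of Prdx2 and Srxn1 at 48 h in marrow lie close to the threshold. Prdx2 lost its call in 7 of 15 other settings and in 9 of 12 fits without 1 array, and Srxn1 in 9 of 15 and 10 of 12. Over these the change of Prdx2 ran from 0.48 to 0.66 with limma adjusted p from 0.0148 to 0.164, and that of Srxn1 from 0.42 to 0.57 with 0.00838 to 0.164. Prdx2 kept its call without marrow 24 h replicate 2 (0.0488), marrow 24 h replicate 3 (0.0331) or marrow 0 h replicate 4 (0.0374), and lost it without any other array. Srxn1 kept it without marrow 24 h replicate 2 (0.0477) or marrow 0 h replicate 4 (0.0165) alone.

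**Figure D5:**
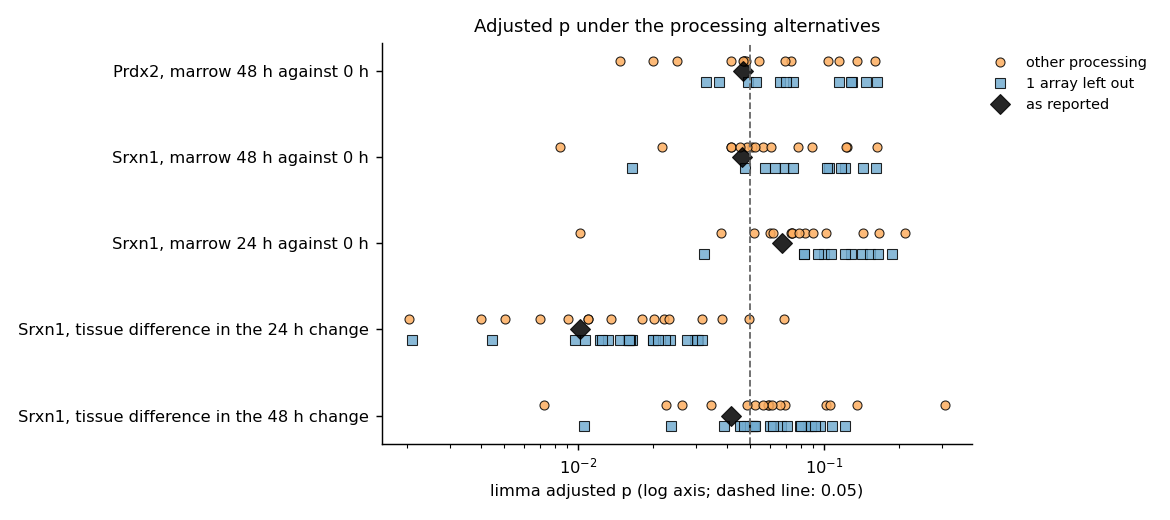
Limma adjusted p (horizontal log axis, dashed line at 0.05) of 5 results under other processing (orange circles), with 1 array left out (blue squares) and as reported (black diamonds). The tissue difference in the 24 h change of Srxn1 stays left of the line in all but 1 setting (0.0682), and the other 4 results fall on both sides of it.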

How the data were processed

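Gene expression was measured on 24 one-colour Agilent arrays. The deposited scanner files hold intensity values made with Agilent Feature Extraction 10.10.1.1, background subtracted within each array, per the file headers. A deposited table by the authors holds log2 values whose scaling is unstated, used as an alternative only. The submitters' processing notes also name limma.

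Here the processed signal was taken as log2 and set against the 75th percentile of all non-control spots of its array. Control spots and outlier flags were left out, and spots of a probe were averaged. Probes well above background on all 4 arrays of a group were kept, and the kept probe with the highest mean stood for a gene. The 75th percentile intensity was 361.2 to 473.1 in liver and 715.0 to 954.7 in marrow. The number of arrays limits the precision. limma 3.58.1 (R 4.3.3) was fitted to the 12 arrays of a tissue, or to all 24 for differences between tissues, with Benjamini-Hochberg adjustment. Exact permutation tests used scipy 1.17.1. The fits were tested on simulated data. Within a tissue, replicates are separate mice, and equal replicate numbers do not pair them across times. Liver and marrow of a time share mice. Of 12 same-numbered liver and marrow pairs of a time, 6 deviated together with a correlation over 0.1. The 12 ran from 0.003 to 0.152 (median 0.098, against -0.035 for 36 other pairs), and all 12 also share a slide. Pairs on the same slide with different numbers ran from -0.062 to -0.013. The labels do not say which arrays share a mouse and the cause was not tested, so the pairing is not established.

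The members and lists were chosen with earlier results of these data known. Named genes are the 10 enzymes, up to 4 called genes per list with the largest change, or up to 2 with the smallest p where none was called, and the 3 genes most correlated with each of 6 enzyme patterns. Of each list's uncalled genes only some are named. Promoters are RefSeq's on GRCm38.p6, and 9 of 10 enzymes matched. Alternatives covered scaling, background, filters, probes, blocks, variance, the arrays fitted and each array left out.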

Additional observations from a re-analysis of the deposited data

Results flagged for a closer look

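Srxn1 changed differently in the 2 tissues, by the test of the difference itself. Its 24 h change was 0.78 higher in marrow than in liver (limma adjusted p 0.0101) and its 48 h change 0.61 higher (limma adjusted p 0.0415). With same-numbered liver and marrow arrays of a time as a block, these were 0.0492 and 0.105 (limma adjusted p).

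A lone array stood apart from the other 3 of its group in 3 of 60 sets of 4 values, where chance alone gives about 1 in 20. Gclm in marrow at 0 h had its highest array at 4.35, with the others at 4.00 to 4.05. Prdx2 in liver at 0 h had its lowest array at 4.30, with the others at 4.55. Sod1 in marrow at 0 h had its lowest array at 5.82, with the others at 6.19 to 6.21.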

How the results depend on the processing

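Of the 10 enzymes, 2 were called in marrow at 48 h as reported. The count was 0 under quantile normalisation, median scaling, the authors' processed values, no filter on dim probes, the slide as a block, the replicate block or the fit to the arrays compared alone, 1 with the 75th percentile over detected probes or the mean of probes, 4 with array weights, and 0 to 2 without 1 array. At 24 h in marrow it was 0 as reported, 1 with trended robust variance or array weights, and 0 to 1 without 1 array. For the difference between tissues at 24 h it was 1, but 0 in the fit to the arrays compared alone, and 1 in each fit without 1 array. For that at 48 h it was 1, but 0 under quantile normalisation, the percentile over detected probes, median scaling, the authors' values, no filter, the mean of probes, the slide block, the replicate block, the arrays compared alone, every kept probe or the replicate block within time across tissues, 2 under normexp, the filter requiring all arrays, trended robust variance or array weights, and 0 to 2 without 1 array. In liver it stayed at 0 and between the tissues at 0 h at 9 members in each fit without 1 array. Quantile normalisation reversed the tissue difference of Gpx1 to 0.18 and of Gpx4 to 0.37. The cause of these shifts was not tested. Over all genes and settings that keep every array, other than every kept probe, calls in marrow ran from 69 to 772 at 24 h (217 as reported) and 100 to 1565 at 48 h (264), and those for the difference between tissues from 10 to 233 (83) and 11 to 330 (94). In fits without 1 array the ranges were 72 to 213, 98 to 379, 24 to 176 and 29 to 110. Without marrow 24 h replicate 2 these 4 counts were 135, 379, 50 and 110. Same-numbered samples of a tissue did not clearly deviate together. Their median correlation was 0.029 in liver and 0.053 in marrow, against -0.01 and -0.029 for samples with different numbers. They are separate mice, so the replicate block shares only a number. Under it the limma adjusted p was 0.115 for Prdx2 and 0.0779 for Srxn1 in marrow at 48 h. The authors' values were not run for marrow against liver at 0 h. Every kept probe, the percentile after averaging spots and the block across tissues were chosen after seeing the data.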
